A study of Mus musculus with 18 samples.

Results

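Mouse embryos that carry 2 copies of a catalytically inactive *Dnmt3b* (Dnmt3b CI/CI) were compared with wild-type embryos (Dnmt3b +/+) by RNA-seq of whole embryos at midgestation (E11.5). The comparison takes in 6 of the 18 samples of the series, 3 embryos of each genotype, and all 19041 of the 34244 named genes in the table that reached 0.1 FPKM in 3 or more of these 6 embryos. FPKM is the number of reads on a gene scaled to the length of the gene and to the size of the library. The CI allele is a constitutive knock-in made with CRISPR/Cas9 in FVB zygotes, in which a proline and a cysteine of the catalytic site are replaced by valine and aspartate, and offspring of different founders were not kept apart. Embryos labelled Dnmt3b -/-, of the same stage and strain and also 3 in number, carry a conventional null allele made from a loxP allele. They are used here to show where Dnmt3b CI/CI embryos differ from embryos with the null allele. Their values also enter the estimate of spread behind each test, since all 9 embryos were fitted together. All 9 embryos are of the FVB strain at E11.5, received no agent, and gave 1 library each.

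Dnmt3b is one of the enzymes that place new methyl groups on cytosines of CpG sites in the early embryo, together with Dnmt3a, and Dnmt1 copies the marks at each cell division. Genes of the germ line, which make the proteins of meiosis and of the piRNA machinery that silences transposons, are the best known genes kept off in somatic cells by methylation of their promoters. The question of the comparison is how much of the embryo's expression depends on the catalytic activity of Dnmt3b when the protein itself is present.

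The alleles are told apart with a forward primer for each, which are shown because each ends on bases that differ between the alleles. Those bases are in capitals, and the lower-case bases before them are shared, apart from the first base of the wild-type primer, which the other primer leaves out.
Dnmt3b-F1, wild-type allele: gtgattggtggaagcCCATG
Dnmt3b-F2, CI allele: tgattggtggaagcGTCGA
The wild-type primer matches GRCm38 once on chromosome 2, at chr2:153677198-153677217 on the plus strand, inside exon 19 of the transcript Dnmt3b-201, and the CI primer has 0 matches there. *Dnmt3b* itself was at 2.25, 1.62 and 2.04 FPKM in Dnmt3b +/+ and at 2.06, 1.98 and 2.32 FPKM in Dnmt3b CI/CI embryos. The ranges overlapped, and the log2 fold change was 0.11 (standard error 0.15, limma adjusted p = 0.96). A level summed over the gene does not show the substitution, so it does not check the genotype. The embryos labelled Dnmt3b -/- had 2.45, 3.12 and 3.33 FPKM, not less than the others, and are therefore named by their label.

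The libraries held 38451733 to 49808781 reads by the totals behind their normalization, and 11262 to 11862 genes per library had no reads in the 6 embryos. The embryos were not alike in their tissues. In Dnmt3b CI/CI embryo 2, *Emx1*, a factor of the cerebral cortex, had 0.0212 FPKM against 1.57 to 4.56 FPKM in the other 5 embryos, and the lens crystallin *Cryaa* 0.0175 FPKM against 16.4 to 42.9 FPKM. In Dnmt3b +/+ embryo 2, the liver genes *Alb* and *Afp* had 0.103 and 0.119 FPKM, against 42.1 FPKM or more for each gene in the other 5 embryos. *Myl2*, of the heart ventricle, had 0.0115 and 0.0654 FPKM in Dnmt3b +/+ embryos 1 and 3 and 0.0934 FPKM in Dnmt3b CI/CI embryo 3, against 11.3 to 14.5 FPKM in the other 3. Markers of organs that whole embryos hold were thus near the floor in 5 of the 6 libraries, and 1 embryo of each genotype (Dnmt3b +/+ embryo 1 and Dnmt3b CI/CI embryo 3) had almost no reads on Y-linked genes. The part of these differences in the results below was not tested, apart from the fits without single embryos that are given beside them. In whole embryos, fewer cells of a kind and less RNA per cell cannot be told apart.

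**Figure D1:**
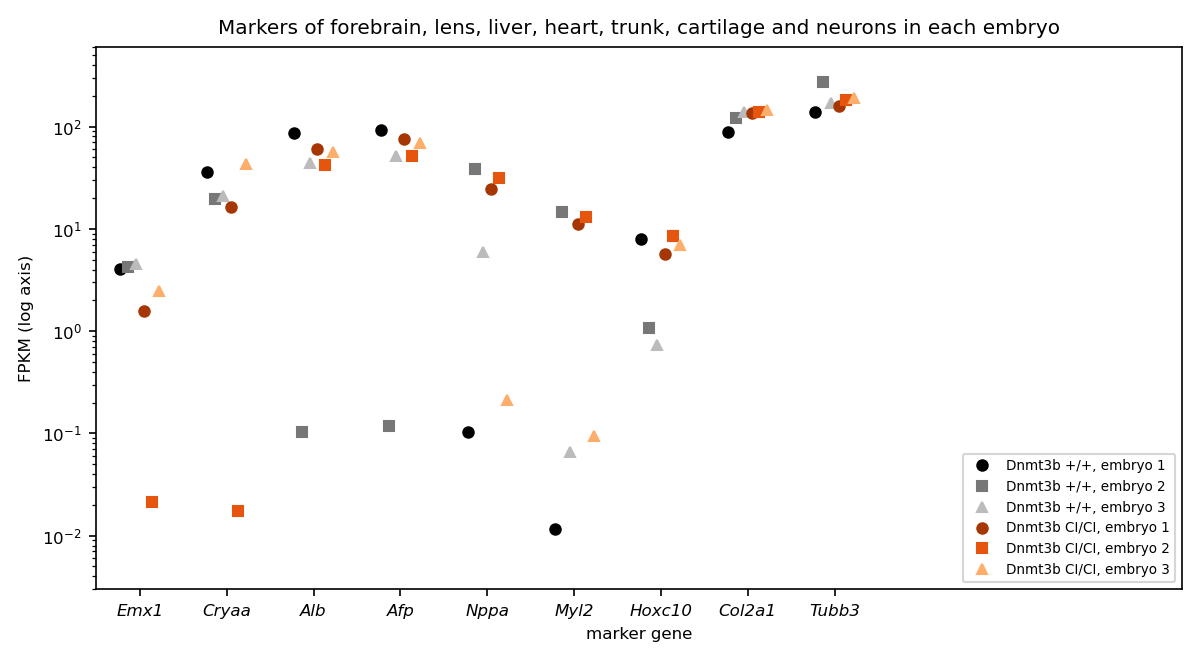
FPKM of 9 tissue marker genes (x axis) in each of the 6 embryos on a log axis (y axis), with 1 point per embryo. Forebrain and lens genes lie lowest in Dnmt3b CI/CI embryo 2, liver genes in Dnmt3b +/+ embryo 2, and *Myl2* lies at 0.0934 FPKM or below in 3 embryos.

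Against Dnmt3b +/+ embryos, 24 genes were called higher with the inactive enzyme and 0 were called lower, at a Benjamini-Hochberg adjusted p under 0.05 from limma and a fold change of at least 2 on the log2(FPKM + 0.1) scale. These are 0.126% and 0% of the 19041 genes tested. A fit of only the 6 Dnmt3b +/+ and Dnmt3b CI/CI embryos called 20 genes higher and 0 lower, with *Cyct*, *Tdrd1*, *Meioc* and *Stag3* lost. At an unadjusted p under 0.05 alone, 501 genes were higher (2.63%) and 480 lower (2.52%), and voom, fitted to reads worked back from the FPKM values, called 18 higher and 0 lower. The fold changes of the 24 genes on this scale ranged from 2.16 to 32.1 with a median of 4.23. Without Dnmt3b CI/CI embryo 2, which lacked forebrain and lens markers, 18 genes were higher, without Dnmt3b +/+ embryo 2, which lacked liver markers, 24, and without Dnmt3b +/+ embryo 1 or 3 or Dnmt3b CI/CI embryo 3, which lacked *Myl2*, 22, 21 and 21 (with 2 lower in the last), while a fit of the 7 of 9 embryos with reads on Y-linked genes, 4 of them Dnmt3b +/+ or Dnmt3b CI/CI, gave 16. Every one of the 24 had all 3 Dnmt3b CI/CI embryos above all 3 Dnmt3b +/+ embryos, as had 7.53% of all genes tested. The table gives a gene without reads the value of 0.9 reads. The levels themselves were low, with a median over the 24 genes of 1.03 FPKM in Dnmt3b CI/CI and 0.098 FPKM in Dnmt3b +/+ embryos, where the mean of 23 genes was under 1 FPKM. Of the 24, 10 genes passed the filter only through the Dnmt3b CI/CI embryos, since they were under 0.1 FPKM in every Dnmt3b +/+ embryo, and with no filter 23 genes were called, 22 of them among the 24. Just inside the filter was *Gm42971*, where the value that decided was 0.100005 FPKM, and just outside it *1700101I19Rik*, with 0.0999847 FPKM.

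**Figure D2:**
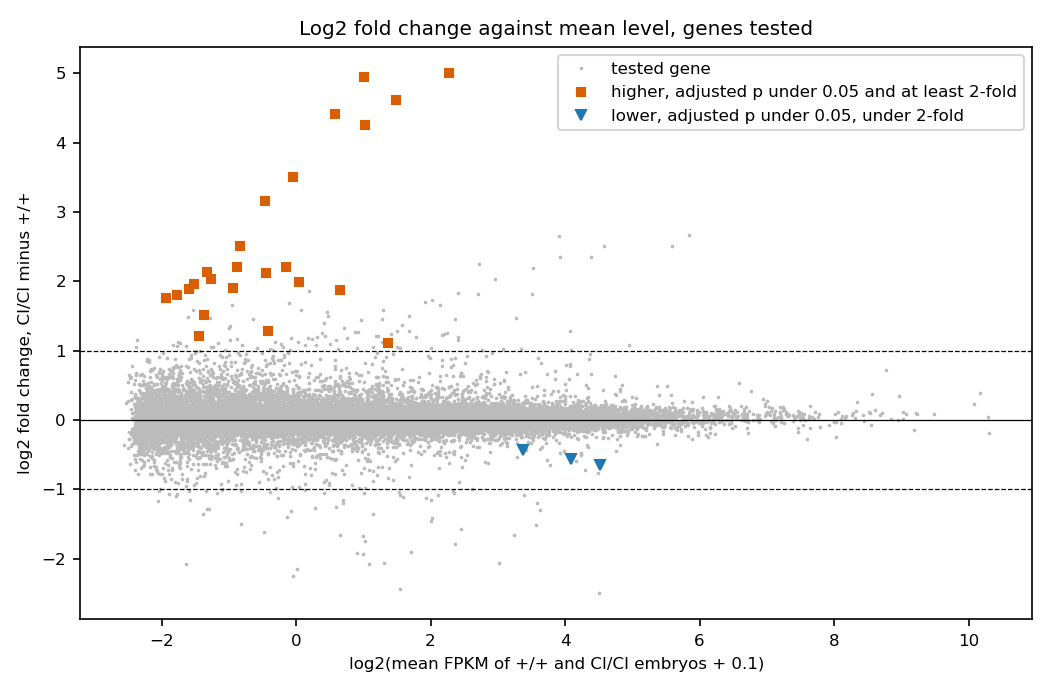
Log2 fold change of Dnmt3b CI/CI against Dnmt3b +/+ embryos (y axis) against the log2 mean level (x axis) for the 19041 genes tested, with 1 point per gene and dashed lines at a fold change of 2. The 24 genes called higher lie toward the low end of the levels, and the 3 genes called lower without the fold threshold lie between -0.65 and -0.43.

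The higher genes were for the most part genes of the germ line. Of 143 genes in 5 lists of germline genes, 65 could be tested and 17 were called higher, and 7 called genes belong to none of the lists. The median log2 fold change over the list genes was 0.47 for those tested, which include 9 that passed only through Dnmt3b CI/CI embryos, and 0.066 over all 143 with no filter, against 0.018 and 0.011 over all genes. At an unadjusted p under 0.05, 31 of the 65 were higher, against 2.63% of all genes tested, and 1 was lower, and 31 had all Dnmt3b CI/CI embryos above all Dnmt3b +/+ embryos, against 7.53%. The 65 genes of these counts include the same 9, for which the filter favours a rise. The lists were chosen with earlier results of these data known. The median with no filter includes many members with few or no reads. Of the 24 genes, 7 lie on the X chromosome (29.2%), which holds 594 of the genes tested (3.12%).

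**Figure D3:**
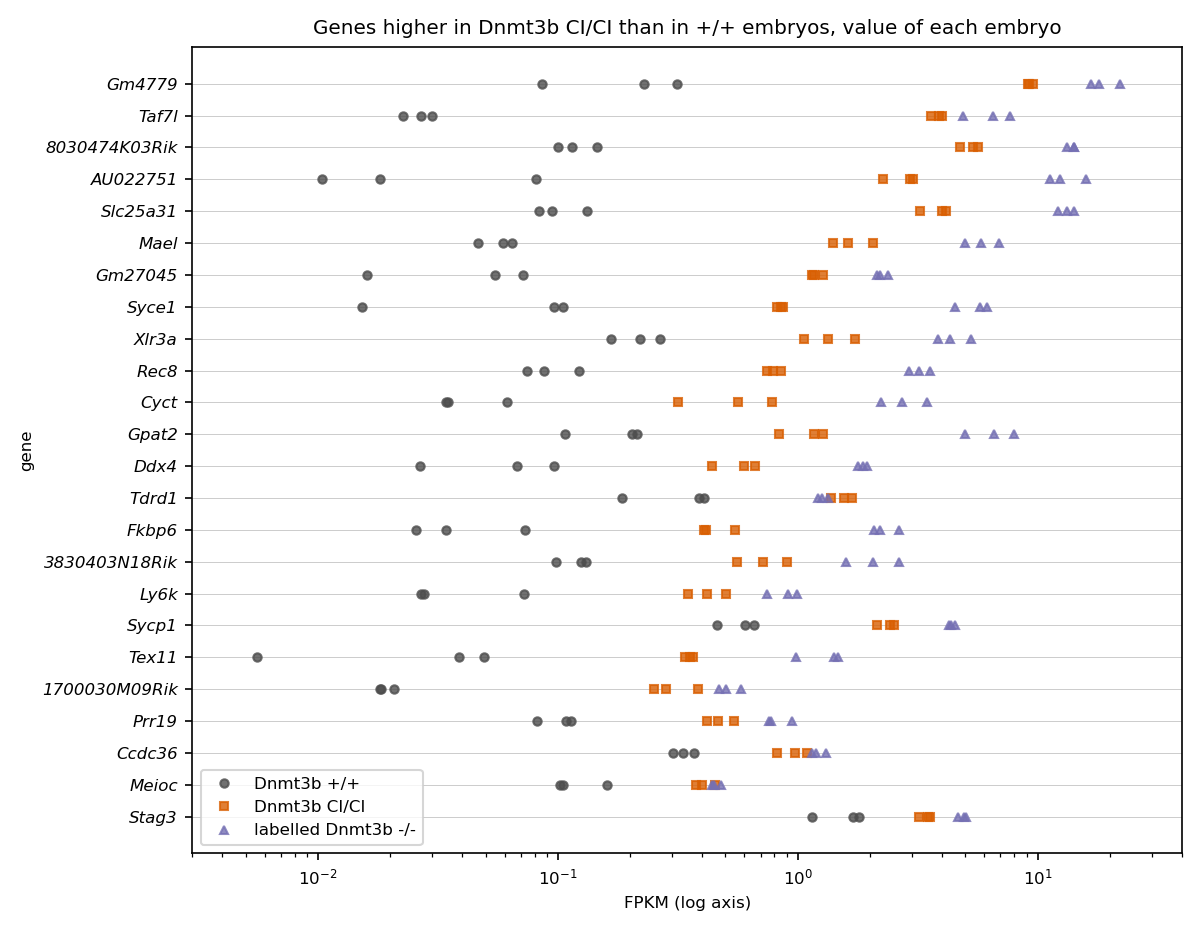
FPKM of each of the 24 genes in each of the 9 embryos, with the gene on the y axis and FPKM on a log x axis, and 1 symbol per embryo by genotype. Every Dnmt3b CI/CI embryo lies above every Dnmt3b +/+ embryo, and embryos labelled Dnmt3b -/- lie higher still for most genes (a gene without reads is drawn at the table's floor of 0.9 reads).

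Among the steepest rises were those of genes with a housekeeping relative that works in other cells. *Taf7l*, an X-linked form of the general transcription factor subunit TAF7, had 0.0299, 0.0268 and 0.0227 FPKM in Dnmt3b +/+ embryos and 3.98, 3.58 and 3.88 FPKM in Dnmt3b CI/CI embryos. The groups were far apart (log2 fold change 4.95, standard error 0.15, adjusted p = 1.51e-06). The Dnmt3b +/+ libraries held 3, 3 and 2 reads on it, so the ratio of reads, 143, carries a 95% counting interval of 72.3 to 332. *Slc25a31*, the germline ADP/ATP carrier of mitochondria, had 0.0947, 0.132 and 0.0839 FPKM in Dnmt3b +/+ and 4.14, 3.99 and 3.23 FPKM in Dnmt3b CI/CI embryos (log2 fold change 4.25, standard error 0.13, adjusted p = 1.51e-06). *Cyct*, the testis cytochrome c, is the weakest of this kind, with 1, 2 and 0 reads against 23, 16 and 8 reads, a ratio of 16.5 with a counting interval of 5.32 to 83.1, and its call was lost in 11 of 21 other settings. *Cyct* also passed the filter only through Dnmt3b CI/CI embryos. In the list of germline paralogs of somatic genes, 2 of 9 tested members were called, against 0.126% of all genes. *Taf7l* passed the filter only through Dnmt3b CI/CI embryos, and the median log2 fold change of all 24 listed genes with no filter was 0.035. The ribosomal protein gene *Rpl39l*, at 0.216, 0.411 and 0.399 against 0.804, 0.639 and 0.939 FPKM, was not called (adjusted p = 0.418), and neither was the tubulin gene *Tuba3a*, at 0.193, 0.0665 and 0.0676 against 0.31, 0.49 and 0.207 FPKM (adjusted p = 0.784).

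Among genes of the piRNA pathway, 5 of 13 tested members were higher and 0 lower, against 0.126% and 0% of all genes. Of the 5, *Mael*, *Ddx4* and *Fkbp6* passed the filter only through Dnmt3b CI/CI embryos, and the median log2 fold change of all 25 listed genes with no filter was 0.15. *Mael*, needed for transposon silencing in germ cells, rose from 0.0646, 0.0463 and 0.0588 FPKM in Dnmt3b +/+ embryos to 1.40, 2.05 and 1.62 FPKM in Dnmt3b CI/CI embryos (log2 fold change 3.502, standard error 0.16, adjusted p = 4.06e-05). *Ddx4*, the germ cell RNA helicase, in the same order had 0.0966, 0.0266 and 0.0677 FPKM against 0.599, 0.667 and 0.440 FPKM (log2 fold change 2.04, standard error 0.19, adjusted p = 0.00323). Neither gene overlapped between the genotypes, as was so for all 24 called genes and, in this direction, for 7.53% of all genes tested. *Gpat2*, a mitochondrial acyltransferase homologue that acts in piRNA biogenesis, had 0.205, 0.214 and 0.107 FPKM against 0.839, 1.17 and 1.28 FPKM (adjusted p = 0.00872), a call that was lost without Dnmt3b CI/CI embryo 2 or 3 and on voom. *Fkbp6*, a co-chaperone of the pathway, had 0.0256, 0.0344 and 0.0727 FPKM against 0.546, 0.409 and 0.415 FPKM (adjusted p = 0.00256). *Tdrd1*, a Tudor protein that binds the Piwi proteins, had 0.185, 0.406 and 0.389 FPKM against 1.69, 1.55 and 1.38 FPKM (adjusted p = 0.00724), a call lost in 5 of 22 other settings, among them those without Dnmt3b CI/CI embryo 1 or 2. Of the members not called, *Rnf17* was at 0.147, 0.125 and 0.0654 FPKM against 0.346, 0.200 and 0.258 FPKM (adjusted p = 0.574), and *Tdrkh* and *Tex15* had log2 fold changes of -0.08 and -0.14.

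Of 22 tested genes of meiosis, 7 were higher and 0 lower, against 0.126% and 0% of all genes. *Tex11*, which was called, and *Tex12*, *Hormad2* and *Sycp2*, which were not, passed the filter only through Dnmt3b CI/CI embryos, and the median log2 fold change of all 38 listed genes with no filter was 0.12. *Sycp1*, which forms the transverse filaments of the synaptonemal complex, had 0.655, 0.463 and 0.602 FPKM in Dnmt3b +/+ and 2.42, 2.14 and 2.52 FPKM in Dnmt3b CI/CI embryos (log2 fold change 1.88, standard error 0.12, adjusted p = 0.000261). *Syce1*, of the central element of the same complex, had 0.0153, 0.0963 and 0.105 FPKM against 0.854, 0.870 and 0.819 FPKM (log2 fold change 2.51, standard error 0.22, adjusted p = 0.00256), a call lost on voom and with a pseudocount of 1 FPKM. The meiotic cohesin subunits *Rec8* and *Stag3* were called, while *Smc1b* and *Rad21l*, also meiotic cohesin genes, were at 0.0322 FPKM or below in all 6 embryos and were not tested. *Rec8* had 0.122, 0.0877 and 0.0742 FPKM against 0.746, 0.849 and 0.785 FPKM (adjusted p = 0.000135), and *Stag3*, with 1.15, 1.70 and 1.81 FPKM against 3.49, 3.58 and 3.20 FPKM, was the called gene with the smallest fold change (2.16, adjusted p = 0.0296), lost in 14 of 22 other settings. *Tex11*, an X-linked gene of meiotic crossing over, had 0, 7 and 7 reads against 58, 53 and 51 reads (adjusted p = 0.00623), a call lost in 5 of 21 other settings, among them voom and the fit without Dnmt3b CI/CI embryo 1. *Ccdc36*, which RefSeq calls *Iho1* and which acts in the formation of meiotic DNA breaks, had 0.302, 0.333 and 0.371 FPKM against 0.971, 1.10 and 0.819 FPKM (adjusted p = 0.00503), but it lies opposite *1700102P08Rik*, at 0.442 to 0.667 FPKM in these embryos, and without a stated strand reads of the pair cannot be told apart. *Meioc*, a meiotic RNA regulator, had 0.102, 0.161 and 0.105 FPKM against 0.454, 0.400 and 0.377 FPKM (adjusted p = 0.0111), and was lost in 10 of 21 other settings. *Tex12*, another central element gene, lay just outside the call at 0.0198, 0.0198 and 0.0226 FPKM against 0.175, 0.205 and 0.128 FPKM (adjusted p = 0.0633).

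On the X chromosome, *Gm4779* had the largest fitted change at the pseudocount of 0.1 FPKM (log2 fold change 5.003, standard error 0.25, adjusted p = 4.9e-05), from 0.313, 0.229 and 0.0863 FPKM to 9.60, 9.11 and 9.24 FPKM. Its head-to-head neighbour *8030474K03Rik* had the smallest adjusted p (2.23e-07), with 0.145, 0.1002 and 0.115 FPKM against 5.62, 5.41 and 4.76 FPKM. *AU022751*, which RefSeq lists as *Ezhip* and whose product inhibits the histone methyltransferase complex PRC2, had 0.0814, 0.0182 and 0.0104 FPKM in Dnmt3b +/+ and 3.04, 2.95 and 2.27 FPKM in Dnmt3b CI/CI embryos (log2 fold change 4.41, standard error 0.21, adjusted p = 4.06e-05). None of the 3 genes overlapped between genotypes, as was so for all 24 called genes and, in this direction, for 7.53% of all genes tested. *AU022751* passed the filter only through Dnmt3b CI/CI embryos. With a pseudocount of 0.01 FPKM, *Taf7l* (log2 fold change 6.71) and *AU022751* (6.19) had larger changes than *Gm4779* (5.58). *Xlr3a*, of a family of near-identical X-linked copies among which reads could be split, had 0.166, 0.268 and 0.221 FPKM against 1.74, 1.34 and 1.07 FPKM (adjusted p = 0.00279), and its relatives *Xlr4b* (adjusted p = 0.192) and *Xlr3c* (adjusted p = 0.697) were not called. *3830403N18Rik*, also X-linked, had 0.131, 0.0982 and 0.125 FPKM against 0.719, 0.904 and 0.560 FPKM (adjusted p = 0.00872), a call lost in 6 of 21 other settings, among them voom and those without Dnmt3b +/+ embryo 3 or Dnmt3b CI/CI embryo 1 or 2. In the list of X-linked germline families 3 of 9 tested members were called higher and 0 lower, against 0.126% and 0% of all genes, and 8 of the 9 were higher at an unadjusted p under 0.05, against 2.63% of all genes. *Xlr4a*, not called (adjusted p = 0.329), passed the filter only through Dnmt3b CI/CI embryos. The median log2 fold change was 1.35 over the 9 tested and 0.015 over all 33 with no filter, of which 23 had at most 3 reads in each Dnmt3b +/+ embryo.

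Among the other called genes, *Prr19*, which acts in meiotic crossing over, had 0.108, 0.113 and 0.0822 FPKM against 0.467, 0.540 and 0.419 FPKM (adjusted p = 0.00299). *Ly6k*, a surface protein of germ cells, had 1, 3 and 0 reads against 13, 15 and 16 reads, a ratio of 11.6 with a counting interval of 4.23 to 44.5, and its call was lost in 3 of 21 other settings, voom among them. It lies opposite *Gm17189* on the other strand, and the use of strand in counting is not stated, so reads of the pair cannot be told apart. On chromosome 8, the noncoding genes *Gm27045*, with 1, 5 and 3 reads against 72, 71 and 69 reads, and *1700030M09Rik*, with 0, 1 and 0 reads against 19, 12 and 12 reads, lie next to each other, and both lie inside *Gm20388*, a long gene of 26.5 to 30.1 FPKM in these 6 embryos that was not higher (adjusted p = 0.958). *Gm27045* is also overlapped on the other strand by *1700018B08Rik*, at 0.0156, 0.0140 and 0.0177 FPKM against 0.155, 0.0893 and 0.0804 FPKM, from which its reads cannot be told apart. The read ratio of *1700030M09Rik*, 45.4, has a counting interval of 7.72 to 1834. *Ly6k*, *Gm27045* and *1700030M09Rik* passed the filter only through Dnmt3b CI/CI embryos.

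Whole embryos also hold primordial germ cells, whose markers were listed separately. Of 13 markers 8 were tested, 0 were called higher, against 0.126% of all genes, and their median log2 fold change was 0.017. *Pou5f1* had 0.159, 0.00804 and 0.215 FPKM in Dnmt3b +/+ embryos and 0.119, 0.123 and 0.0810 FPKM in Dnmt3b CI/CI embryos, and *Dppa3* had 0.126, 0.0203 and 0.171 FPKM against 0.0499, 0.181 and 0.0875 FPKM. The summed level of the 13 markers was 30.05, 33.6 and 28.8 FPKM against 19.6, 18.6 and 27.0 FPKM, most of which is *Sox2*, a gene that the neural tube also uses. In the list of germ cell identity genes, which shares members with this one, 0 of 12 were called higher, against the same share. *Dazl*, an RNA-binding protein of germ cells, was at 0.152, 0.00682 and 0.0953 FPKM against 0.167, 0.133 and 0.124 FPKM (adjusted p = 0.953).

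The promoters of the higher genes were read from RefSeq for GRCm38.p6, as the 250 bases before and the 50 bases after each start, and 21 of the 24 genes had one. They held 5 to 38 CpG sites with a median of 18, against 7 over all 32841 promoters and 19 over the 12875 promoters of tested genes, so their density was near that of the genes tested. The E-box CACGTG, which reads the same on both strands, was in 8 of the 21 (38.1%), against 9.53% of the promoters of tested genes and 7.15% of all. The sequence TCCCGC, a motif of the E2F6 type searched on both strands, was in 10 of the 21 (47.6%), against 34.2% and 19.98%. The sequence TGACGT was in 0 of the 21 on either strand, against 11.1% and 7.52%. These shares are descriptions of the letters, and the promoters of *Gm4779* and *8030474K03Rik* are nearly the same window read from opposite strands. Promoters with both motifs (which *Stag3* also has) in *Slc25a31*, *Mael*, *Ddx4* and *Sycp1*, with CACGTG alone in *Taf7l*, and with neither in *AU022751* are shown from 5′ to 3′, with CACGTG and TCCCGC (or its reverse complement, GCGGGA) in capitals.
Slc25a31, chr3:40708621-40708920, plus strand: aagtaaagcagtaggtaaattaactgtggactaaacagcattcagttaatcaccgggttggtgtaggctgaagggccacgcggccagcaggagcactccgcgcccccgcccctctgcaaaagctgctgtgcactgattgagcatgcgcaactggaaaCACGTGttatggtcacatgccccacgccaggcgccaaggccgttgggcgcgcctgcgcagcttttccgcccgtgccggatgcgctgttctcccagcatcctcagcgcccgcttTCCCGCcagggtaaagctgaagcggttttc
Mael, chr1:166238695-166238994, minus strand: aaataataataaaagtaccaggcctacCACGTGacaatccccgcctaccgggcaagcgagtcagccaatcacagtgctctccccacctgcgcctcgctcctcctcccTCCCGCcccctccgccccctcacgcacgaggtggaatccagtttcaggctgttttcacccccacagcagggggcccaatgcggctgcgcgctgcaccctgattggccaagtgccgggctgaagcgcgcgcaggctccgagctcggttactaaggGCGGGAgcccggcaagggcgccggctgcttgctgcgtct
Ddx4, chr13:112652261-112652560, minus strand: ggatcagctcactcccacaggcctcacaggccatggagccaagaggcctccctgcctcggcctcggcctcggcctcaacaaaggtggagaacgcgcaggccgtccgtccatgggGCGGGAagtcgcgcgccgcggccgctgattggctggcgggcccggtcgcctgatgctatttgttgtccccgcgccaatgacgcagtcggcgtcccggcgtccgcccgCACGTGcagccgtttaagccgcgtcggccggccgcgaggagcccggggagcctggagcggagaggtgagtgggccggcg
Sycp1, chr3:102936051-102936350, minus strand: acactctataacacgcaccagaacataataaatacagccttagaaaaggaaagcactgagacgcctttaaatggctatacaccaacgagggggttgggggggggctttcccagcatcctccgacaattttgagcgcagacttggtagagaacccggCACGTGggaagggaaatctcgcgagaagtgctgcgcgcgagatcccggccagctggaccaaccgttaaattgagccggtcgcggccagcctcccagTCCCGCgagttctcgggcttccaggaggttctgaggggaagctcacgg
Taf7l, chrX:134476441-134476740, minus strand: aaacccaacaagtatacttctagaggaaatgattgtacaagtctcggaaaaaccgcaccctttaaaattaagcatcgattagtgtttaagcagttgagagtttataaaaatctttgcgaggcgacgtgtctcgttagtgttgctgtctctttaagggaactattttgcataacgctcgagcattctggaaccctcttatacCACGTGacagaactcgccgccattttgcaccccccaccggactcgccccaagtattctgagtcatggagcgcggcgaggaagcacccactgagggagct
AU022751, chrX:6083371-6083670, minus strand: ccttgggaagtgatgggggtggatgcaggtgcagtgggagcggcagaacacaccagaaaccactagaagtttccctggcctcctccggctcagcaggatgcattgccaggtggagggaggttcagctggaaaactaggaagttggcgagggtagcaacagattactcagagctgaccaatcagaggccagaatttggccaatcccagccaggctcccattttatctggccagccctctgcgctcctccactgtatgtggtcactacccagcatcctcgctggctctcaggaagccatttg
*AU022751* is also the gene among these 6 with the fewest CpG sites, 5, and *Ddx4* the one with the most, 38, while their log2 fold changes were 4.41 and 2.04.

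Against the embryos labelled Dnmt3b -/-, the rise in Dnmt3b CI/CI embryos was partial for most genes. Of the 24 genes, 21 stood lower in Dnmt3b CI/CI embryos than in those labelled Dnmt3b -/- at an adjusted p under 0.05, against 9.46% of all genes tested, and 14 of them by at least 2-fold, against 0.861%. All 3 Dnmt3b CI/CI embryos lay below all 3 embryos labelled Dnmt3b -/- for 22 of the 24, against 16.3% of all genes tested. Both comparisons use the same Dnmt3b CI/CI embryos. The mean level in Dnmt3b CI/CI embryos was 15.5% to 121% of that in embryos labelled Dnmt3b -/-, with a median of 36.3%.

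The lowest shares were those of *Syce1*, at 15.5%, with 5.75, 6.14 and 4.51 FPKM in embryos labelled Dnmt3b -/-, and of *Gpat2*, at 16.9%, with 7.95, 6.55 and 4.96 FPKM. *AU022751* reached 20.8% and *Slc25a31* 28.7%, while *Gm4779* reached 49.1%, *Sycp1* 53.6% and *Taf7l* 60.2%. Levels in Dnmt3b CI/CI embryos therefore did not stand at a common share of those in embryos labelled Dnmt3b -/-. Of the 24 genes, 3 did not differ by the test. For *Tdrd1*, the level was 1.34, 1.22 and 1.26 FPKM in embryos labelled Dnmt3b -/-, below each of the Dnmt3b CI/CI embryos, and the log2 difference was -0.25 with a 95% interval of -0.73 to 0.22 (adjusted p = 0.391). For *Meioc* it was 0.13 (-0.18 to 0.44, adjusted p = 0.515) and for *Ccdc36* 0.32 (0.03 to 0.61, adjusted p = 0.0933).

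**Figure D4:**
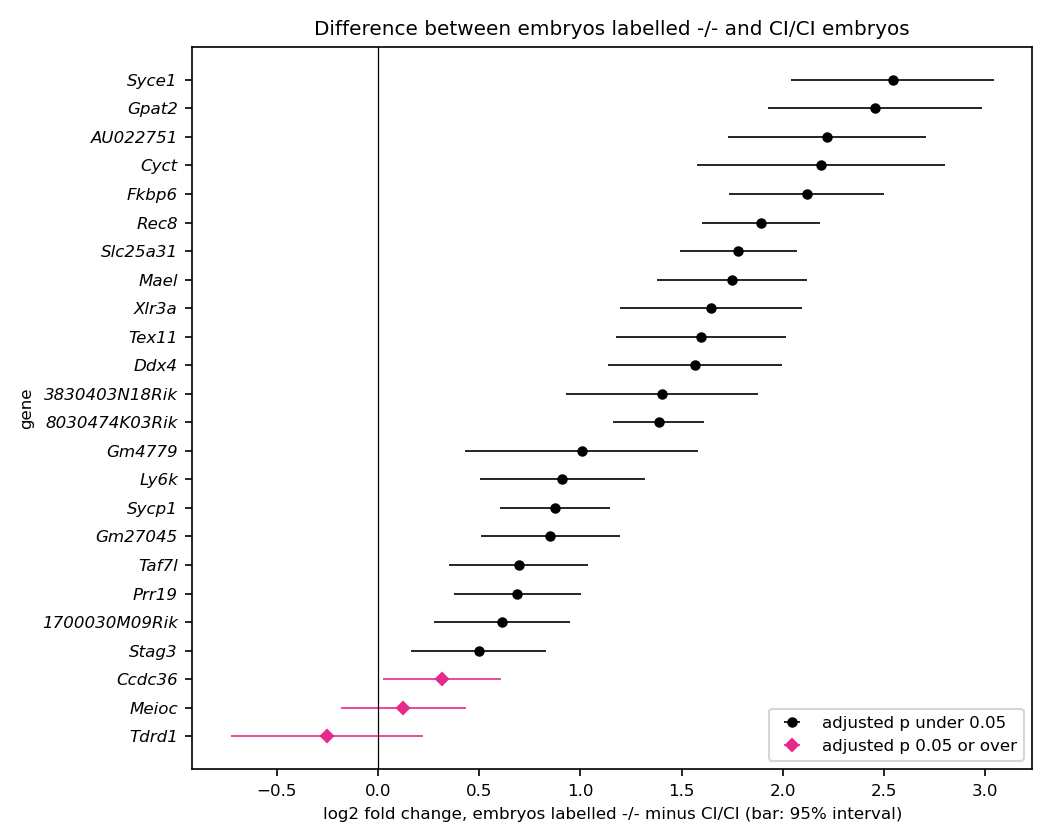
Log2 fold change of embryos labelled Dnmt3b -/- against Dnmt3b CI/CI embryos (x axis) for each of the 24 genes (y axis), with bars for 95% intervals and diamonds for the 3 genes with an adjusted p of 0.05 or over. The values run from -0.25 for *Tdrd1* to 2.54 for *Syce1*.

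Other germline genes, not called against Dnmt3b +/+, also stood lower in Dnmt3b CI/CI embryos than in those labelled Dnmt3b -/-. *Dazl* had 2.85, 2.74 and 2.56 FPKM there, a log2 difference of 3.55 from Dnmt3b CI/CI embryos (adjusted p = 0.000309), and *Tuba3a* had 5.73, 10.7 and 8.33 FPKM, a log2 difference of 4.27 (adjusted p = 0.000306). Among 34 genes that the study grouped by a methylated promoter and by their rise in embryos labelled Dnmt3b -/-, 15 were tested and 7 were called higher, against 0.126% of all genes, which are *Taf7l*, *Slc25a31*, *Mael*, *Gpat2*, *Ddx4*, *Sycp1* and *Meioc*. Of the 15 tested, *Taf7l*, *Mael* and *Ddx4*, and *Tex12* and *Sycp2* that were not called, passed the filter only through Dnmt3b CI/CI embryos. That list was chosen with the same Dnmt3b +/+ samples and is not independent evidence of a direction.

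Genes of the methylation machinery and of known germline repressors were listed as well. Of 19 tested genes of DNA methylation 0 were called, against 0.126% higher and 0% lower of all genes, shares at which lists of this size would seldom hold a call, so the count says nothing particular of them. Their log2 fold changes ran from -0.29 to 0.11, with a median of -0.063. *Dnmt3a* had 15.9, 14.0 and 15.2 FPKM in Dnmt3b +/+ and 15.7, 16.8 and 14.7 FPKM in Dnmt3b CI/CI embryos, and *Dnmt1*, the maintenance enzyme, 26.6, 23.8 and 25.8 against 24.5, 22.7 and 24.3 FPKM (adjusted p = 0.953). *Dnmt3l*, a germline cofactor of the enzymes, was at or under 0.00853 FPKM in all 6 embryos. Of 21 genes of the PRC1.6 complex and of H3K9 methylation 0 were called, against the same shares, with log2 fold changes from -0.16 for *Mga* to 0.15 for *Yaf2*. Of 75 genes tested within 2 Mb of *Dnmt3b*, where the introduced allele lies, 0 were called, again against 0.126% and 0% of all genes, and the smallest adjusted p was 0.58.

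Genes of Wnt, Fgf8 and Hedgehog signaling, which pattern limbs, neural tube and face, had 0 calls among 26 and 16 tested members, against 0.126% higher and 0% lower of all genes. *Wnt9b*, a Wnt ligand, had 0.679, 0.551 and 0.581 FPKM in Dnmt3b +/+ and 0.547, 0.409 and 0.697 FPKM in Dnmt3b CI/CI embryos, against 1.44, 1.19 and 1.44 FPKM in embryos labelled Dnmt3b -/-, which were higher than Dnmt3b CI/CI embryos (log2 fold change 1.18, adjusted p = 0.00254). *Shh*, the ligand of the floor plate and limb bud, had 1.97, 1.66 and 2.22 FPKM against 1.56, 2.47 and 1.77 FPKM, and 4.29, 5.14 and 4.22 FPKM in embryos labelled Dnmt3b -/- (log2 fold change against Dnmt3b CI/CI 1.21, adjusted p = 0.00232). *Fgf8* had 0.830, 0.372 and 0.642 FPKM against 0.462, 0.479 and 0.462 FPKM, and 1.06, 3.43 and 2.85 FPKM (log2 fold change 2.01, adjusted p = 0.00847). For all 3 genes the Dnmt3b CI/CI embryos overlapped the Dnmt3b +/+ embryos and lay below the embryos labelled Dnmt3b -/-. The latter held for 16.3% of all genes tested, and the study itself reports all 3 genes as raised in Dnmt3b -/- embryos. Within the first list, *Rspo2*, *Wnt7b*, *Lef1*, *Sp5* and *Wnt3a* had lower means in Dnmt3b CI/CI embryos with an unadjusted p of 0.0131 to 0.0417 and did not pass the adjusted test (adjusted p from 0.818 to 0.945). These are 5 of 26 members lower at an unadjusted p under 0.05, against 2.52% of all genes, and 0 were higher, against 2.63%. For 5 of the 26, all Dnmt3b CI/CI embryos lay below all Dnmt3b +/+ embryos, against 5.64% of all genes. *Gm128*, which RefSeq lists also as *Ment*, had 0.229, 0.102 and 0.169 FPKM against 0.227, 0.271 and 0.226 FPKM (adjusted p = 0.953).

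Imprinted genes, p53 targets and interferon genes had 0 calls among 35, 20 and 14 tested members, against 0.126% higher and 0% lower of all genes, with median log2 fold changes of 0.084, 0.042 and 0.38. *Rian*, a maternally expressed noncoding RNA, had 16.0, 15.6 and 17.2 FPKM against 20.5, 19.104 and 20.2 FPKM, and *H19* had 1012, 885 and 1096 FPKM against 1251, 1509 and 1169 FPKM, without passing the test (adjusted p = 0.357 and 0.945). For 10 of the 35 imprinted genes, each Dnmt3b CI/CI embryo exceeded each Dnmt3b +/+ embryo, against 7.53% of all genes, and for 2 each lay below, against 5.64%. At an unadjusted p under 0.05, 4 of the 35 were higher and 3 lower, against 2.63% and 2.52% of all genes. *Cdkn1a*, the p53 target that arrests the cell cycle, had 7.41, 8.20 and 9.26 FPKM against 9.24, 11.4 and 9.86 FPKM (adjusted p = 0.945), and 19.5, 16.6 and 15.2 FPKM in embryos labelled Dnmt3b -/-, above Dnmt3b CI/CI embryos (log2 fold change 0.74, adjusted p = 0.00374). *Rsad2*, an interferon-induced gene, had 0.202, 0.130 and 0.218 FPKM against 0.360, 0.405 and 0.486 FPKM (adjusted p = 0.339), and *Isg15* stood highest in Dnmt3b CI/CI embryo 3, at 1.20 FPKM against 0.178 to 0.412 FPKM in the other 5.

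Lists of differentiated tissues also had 0 calls, against 0.126% higher and 0% lower of all genes, so that 0 in lists of this size is near the background. Cartilage matrix genes, 16 tested, had a median log2 fold change of 0.31, skeletal muscle genes, 13 tested, 0.38, neuronal genes, 14 tested, 0.077, and limb and axial patterning genes, 13 tested, 0.17. Against embryos labelled Dnmt3b -/-, 12 of the 16 cartilage genes and 10 of the 13 muscle genes were higher in Dnmt3b CI/CI embryos by the test and at least 2-fold, as were 4.4% of all genes. *Col2a1*, the main collagen of cartilage, had 88.4, 122 and 140 FPKM in Dnmt3b +/+, 134, 138 and 145 FPKM in Dnmt3b CI/CI and 90.6, 62.5 and 53.2 FPKM in embryos labelled Dnmt3b -/-. *Acta1*, of skeletal muscle, had 17.8, 25.2 and 28.6, 34.8, 29.0 and 36.6, and 15.3, 8.79 and 8.14 FPKM in the same order. The summed level of the muscle list was 153, 268 and 257 FPKM in Dnmt3b +/+ and 316, 290 and 271 FPKM in Dnmt3b CI/CI embryos, each of which lay above each Dnmt3b +/+ embryo. Heart, liver and lens lists, with 12, 13 and 14 tested genes, had medians of 0.59, 1.46 and -1.01, and these are the tissues with markers near the floor in some of the embryos. Globin genes had 0 calls among 7, with 1.87% to 2.62% of the FPKM in Dnmt3b +/+ and 1.81% to 2.37% in Dnmt3b CI/CI embryos. Genes of placenta, decidua and yolk sac, 3 tested of 16, and of blood leukocytes, 6 tested of 10, had 0 calls.

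No gene was lower by the full rule. Those with the smallest unadjusted p among genes at least 2-fold lower were *Nkx2-2*, *Lhx9*, *Tcf7l2*, *Gm10421* and *Neurog2*, with adjusted p from 0.186 to 0.303. *Nkx2-2*, a factor of ventral neural progenitors, had 0.818, 1.28 and 1.01 FPKM in Dnmt3b +/+ and 0.364, 0.434 and 0.452 FPKM in Dnmt3b CI/CI embryos. *Neurog2*, which starts neuron formation, had 16.7, 19.5 and 15.2 FPKM against 6.67, 4.57 and 10.5 FPKM. The groups did not overlap for either gene, as was the case in this direction for 5.64% of all genes. A group of 13 forebrain regulators, put together after these values were seen and therefore not tested as a group, had a median log2 fold change of -1.66 with 0 calls. *Emx1* had 4.03, 4.26 and 4.56 FPKM against 1.57, 0.0212 and 2.48 FPKM, and *Otx2*, of the forebrain and midbrain, 2.51, 4.44 and 1.99 FPKM against 0.715, 0.714 and 1.05 FPKM. Dnmt3b CI/CI embryo 2 was lowest for *Emx1*, and the other 2 Dnmt3b CI/CI embryos also lay below all Dnmt3b +/+ embryos. The summed level of the 13 genes was 71.4, 63.7 and 64.5 FPKM against 31.6, 9.45 and 44.2 FPKM, while 10 midbrain and hindbrain regulators summed to 19.6, 54.8 and 21.8 against 26.0, 40.5 and 33.8 FPKM. *Hoxc10*, a gene of the posterior trunk, had 8.04, 1.07 and 0.735 FPKM against 5.67, 8.58 and 7.002 FPKM, and was called higher without Dnmt3b +/+ embryo 1 and in the embryos with reads on Y-linked genes. The part of dissection in these differences was not tested.

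Without the fold threshold, 3 genes were lower at an adjusted p under 0.05 (0.0158% of those tested), *Cpsf1*, *Fbxl6* and *Tonsl*, and all 3 lie close together on chromosome 15. *Cpsf1*, a subunit of the complex that cuts and polyadenylates mRNA, had 27.8, 27.3 and 28.2 FPKM in Dnmt3b +/+ and 17.8, 16.6 and 18.8 FPKM in Dnmt3b CI/CI embryos (log2 fold change -0.65, standard error 0.06, adjusted p = 0.00256). *Fbxl6*, an F-box protein gene, had 19.99, 20.2 and 20.5 FPKM against 13.5, 13.7 and 13.9 FPKM, and *Tonsl*, of DNA repair at replication forks, 11.3, 11.8 and 12.2 FPKM against 8.37, 8.73 and 9.02 FPKM. The call of *Cpsf1* held in 22 of 22 other settings, that of *Fbxl6* in 12 and that of *Tonsl* in 10, and the calls of the latter genes were lost without any 1 Dnmt3b +/+ or Dnmt3b CI/CI embryo. The neighbours of these genes were looked at after their values had been seen. *Dgat1*, *Slc52a2* and *Adck5* were lower by a like amount, with log2 fold changes of -0.62, -0.57 and -0.51 and unadjusted p of 0.000122, 0.000492 and 7.5e-05. No embryo of 1 genotype reached the range of the other in any of the 6 genes, as was so in this direction for 5.64% of all genes tested. This separation follows in part from the choice of the 6 genes by their values. Between them, *Scrt1* and *Slc39a4* varied widely between embryos and had log2 fold changes of -0.48 and 0.18. The nearest tested genes outside, *Hsf1* before *Dgat1* and *Cyhr1* after *Tonsl*, had 0.01 and 0.04, so that the run lies at chr15:76502015-76639958 of GRCm38. In windows of 10 neighbouring tested genes over the genome, 6 genes at an unadjusted p under 0.001 in 1 direction were found there, and elsewhere at most 2. In embryos labelled Dnmt3b -/-, *Cpsf1* had 20.3, 21.3 and 21.2 FPKM and *Fbxl6* 14.6, 15.3 and 12.6 FPKM, also below the Dnmt3b +/+ embryos.

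**Figure D5:**
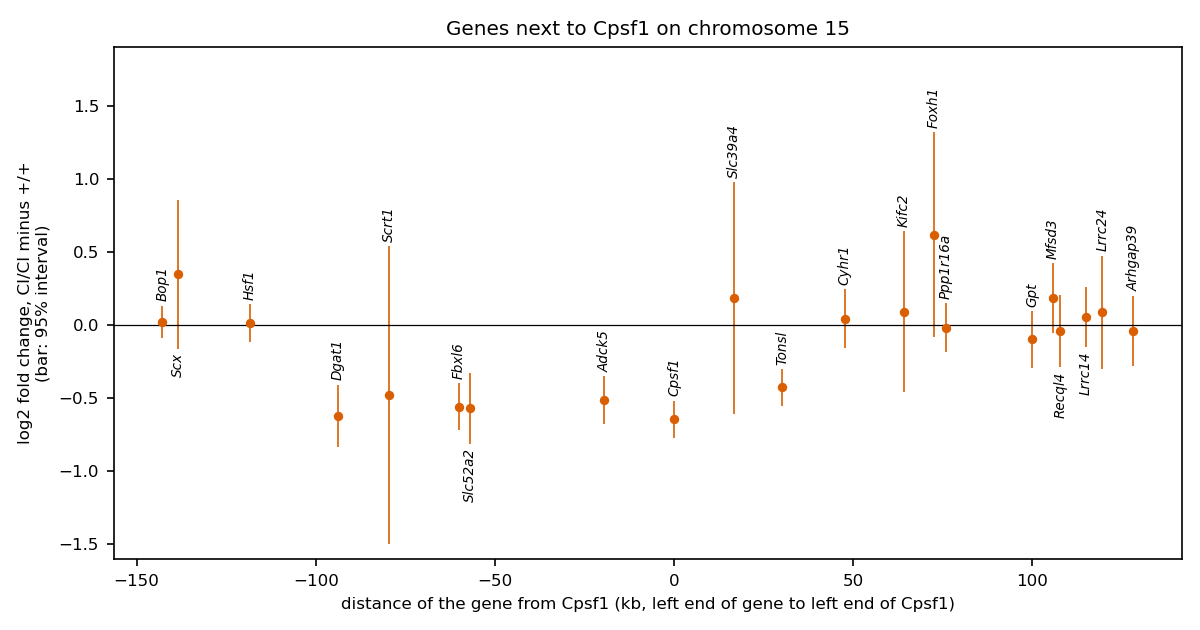
Log2 fold change of Dnmt3b CI/CI against Dnmt3b +/+ embryos (y axis, bars for 95% intervals) for the tested genes within 150 kb of *Cpsf1*, by distance in kb (x axis). The run of 6 genes from *Dgat1* to *Tonsl* lies between -0.65 and -0.43, with *Scrt1* and *Slc39a4* and their wide bars among them, and *Hsf1* and *Cyhr1* on either side lie at 0.01 and 0.04.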

How the data were processed

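RNA was taken from 9 whole embryos, 3 per genotype, 1 library each, sequenced as paired 150 bp reads. The authors trimmed the reads, aligned them with STAR to mm10 (GRCm38), kept alignments of mapping quality 50 or over, and deposited FPKM values per gene from SeqMonk; the aligner's version, the use of strand and the counting of reads or pairs are not given in the sources used here. The authors' processing notes also name DESeq2, Trimmomatic and FastQC. The deposited table has 34245 rows, of which 1 without a gene name was left out, and 46 repeat an identifier.

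Groups were taken from the labels. log2(FPKM + 0.1) of all 9 embryos was fitted with limma 3.58.1 (R 4.3.3, moderated tests with a mean-variance trend) for the 19041 genes with at least 0.1 FPKM in 3 of the 6 Dnmt3b +/+ and Dnmt3b CI/CI embryos. P-values were adjusted by the Benjamini-Hochberg method over all of them, and a call needed an adjusted p under 0.05 and a 2-fold change. A fold change on this scale understates that of low genes. Because FPKM steps keep whole reads, reads were worked back for 33774 genes (98.63%, tolerance 0.02 of a read), and library totals came out at 38451733 to 49808781 reads over the 9 embryos. Intervals of read ratios are exact binomial at the 95% level and cover counting error only. Named by rule were the genes called, those past the adjusted p under 2-fold, the 5 with the smallest unadjusted p among genes at least 2-fold lower, up to 4 further members of each list by smallest p or highest level, *Dnmt3b*, its paralogs, *Ment*, *Wnt9b*, *Fgf8* and *Shh*, and genes gained or lost in a setting where that count is given and is 5 or fewer. Others (the neighbours of *Cpsf1*, the forebrain and Hox genes and some list members such as *Tdrkh*, *Tex15*, *Xlr3c*, *Dppa3* and *Acta1*) were chosen after their values were seen. Replicates are separate embryos. The sources used here do not state whether same-numbered embryos are paired, and the main fit does not pair them. The genes and lists were chosen with earlier results of these data known. Scripts were tested on simulated data. Tables were made in Python 3.11.15 (pandas 2.3.3, numpy 2.4.6) with exact intervals from scipy 1.17.1. Coordinates are GRCm38. Methylation data of the series were not used here. Values of 1 gene are not reported here.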

Additional observations from a re-analysis of the deposited data

How the results depend on the processing

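The 24 genes higher in Dnmt3b CI/CI embryos had a positive log2 fold change in each of 22 other settings that tested them, and 8 of them were called in each (*Gm4779*, *Taf7l*, *8030474K03Rik*, *AU022751*, *Slc25a31*, *Mael*, *Gm27045* and *Sycp1*). With a pseudocount of 1 FPKM, 8 genes were higher and 4 of them also differed by 2-fold from embryos labelled Dnmt3b -/-, against 24 and 14, and with a filter of 1 FPKM in 3 of 6 embryos the counts were 11 and 6, where only 11 of the 24 were left to test. With voom on the reads worked back, 9 genes differed from embryos labelled Dnmt3b -/-; the cause was not tested. At an unadjusted p under 0.05 with a 2-fold change, 48 genes were higher, 36 lower and 25 also differed from embryos labelled Dnmt3b -/-, and without the fold threshold 3 were lower. Leaving out 1 embryo at a time gave 18 to 25 genes higher, 0 to 2 lower and 10 to 14 that also differed from embryos labelled Dnmt3b -/-. Called higher in at least 1 other setting but not among the 24 were *Tex12*, *Xlr4a*, *Xlr4b*, *Ankrd31*, *Hoxc10*, *3222401L13Rik*, *Ccdc182* and *Gm9857*. The lower genes were *Gm13584* without embryo 3 labelled Dnmt3b -/- and *Neurog2* and *Fam167a* without Dnmt3b CI/CI embryo 3. A pseudocount of 0.01 FPKM gave 26 higher genes, no filter 23, median-of-ratios scaling 24, quantile normalization 23, the 6 embryos alone 20 and a Y-linked covariate 24. The 7 of 9 embryos with reads on Y-linked genes, a setting added after seeing the data, gave 16.

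With the replicate number as a block, 17 genes were higher, 0 lower and 11 also differed from embryos labelled Dnmt3b -/-. Same-numbered embryos deviated together with correlations of -0.0015, 0.215 and -0.0511, within the range of -0.267 to 0.267 of embryos with different numbers. So few correlations cannot show whether the numbers pair embryos. Of the uncalled genes that were followed through the settings, *Dnmt3b*, *Wnt9b* and *Shh* changed sign. *Dnmt3b* ranged from -0.0152 (without Dnmt3b +/+ embryo 2) to 0.208 over the fits without 1 embryo, *Wnt9b* from -0.29 to 0.0330 (without Dnmt3b CI/CI embryo 2), and *Shh* from -0.207 to 0.105, above 0 at 0.0667 without Dnmt3b +/+ embryo 3 and at 0.105 and 0.0205 without Dnmt3b CI/CI embryo 1 and 3, and *Shh* was at 0.0307 in the embryos with reads on Y-linked genes. *Cpsf1* stayed at an adjusted p under 0.05 in 22 of 22 settings (log2 fold change -0.69 to -0.60), *Fbxl6* in 12 and *Tonsl* in 10. Most called genes are under 1 FPKM in Dnmt3b +/+ embryos, where a few reads set the level.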

Other observations

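A group of 8 Hox genes of the hindbrain and trunk, chosen after values were seen, had log2 fold changes of 0.46 to 1.83 in Dnmt3b CI/CI against Dnmt3b +/+ embryos with 0 calls, against 0.126% higher and 0% lower of all genes, and their summed level was 35.3, 29.5 and 26.4 FPKM against 41.5, 55.1 and 47.3 FPKM. *Hoxc10*, at 1.83, was called higher without Dnmt3b +/+ embryo 1 and in the embryos with reads on Y-linked genes. The median log2 fold change of the 8 was 0.62, against -1.66 for the forebrain regulators in the same embryos, and the part of dissection was not tested. Of 20 p53 target genes, 6 stood at least 2-fold lower by the test in Dnmt3b CI/CI embryos than in those labelled Dnmt3b -/-, against 0.861% of all genes tested.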
